A study of Drosophila melanogaster with 6 samples.

Results

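The genes described here encode the proteins of the cytosolic ribosome of the fly. They were chosen by symbol, with earlier results of these data known: every gene of the annotation whose FlyBase symbol starts with *RpL* or *RpS* and a digit, together with *RpLP0*, *RpLP1*, *RpLP2* and *sta*. The annotation held 92 such genes, 53 named for the large and 39 for the small ribosomal subunit. Of these, 87 (50 large, 37 small) had a row among the 17559 genes of the count data, while *RpL19*, *RpL27A*, *RpL31*, *RpS10b* and *RpS12* had no row under their current identifiers and were not analysed here.

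RNA from whole heads of female flies was sequenced in 2 control groups of 3 libraries each, and each library came from a pool of heads. Flies of the RT control were w[1118],Elav-GAL4/w[1118] and grew at room temperature (n = 3 libraries). Flies of the Dicer2 25C control are labelled in the same way for the X chromosome, with UAS-Dicer2/+ added on the third chromosome, and grew at 25°C (n = 3 libraries). In the study's list of stocks the drivers with and without *UAS-Dicer2* come from different sources. The listed stock with *UAS-Dicer2* and with *Elav-GAL4* on the X chromosome also carries *mcd8-GFP* there, which the labels do not list. Another listed stock carries *Elav-GAL4* and *UAS-Dicer2* together on the third chromosome, without *mcd8-GFP*. Both groups share a parent stock, the w[1118] stock used with the GD collection of RNAi lines, while the driver parent differs. Both carry *Elav-GAL4*, which drives expression in neurons, without an RNAi construct. *UAS-Dicer2* adds to the cell's Dicer-2, the nuclease that makes small interfering RNA from long RNA duplexes. Driver stock, *UAS-Dicer2* and rearing temperature differ together between the groups, so their parts cannot be told apart. The age of the flies is not given in the sources used here.

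A ribosome has a small subunit, which reads the mRNA, and a large subunit, which joins amino acids and lets the chain out through a tunnel. Each subunit needs most of its proteins in a single copy, so their genes are expressed together in nearly every growing or secreting cell, and many are known in the fly as *Minute* genes, whose loss of a copy slows growth. Some fly ribosomal protein genes exist as several copies (paralogs), of which one is used throughout the body and others mainly in the germline. A whole head mixes brain, eye, muscle, fat and cuticle cells, and in such bulk RNA fewer cells of a type and less RNA per cell cannot be told apart.

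The libraries held 33898008 to 42487803 counted reads in the RT control and 18651266 to 25183878 in the Dicer2 25C control, so that mean depth was 1.69 times higher in RT. *Dcr-2*, the gene that the transgene expresses, was at 61.4, 55.6 and 57.1 CPM (read counts scaled to the size and composition of each library) in RT libraries and at 609, 602 and 506 CPM in Dicer2 25C libraries, which fits the labels. Reads that aligned to several places were far more numerous in Dicer2 25C replicate 1 (69361668 alignments) than in the other 5 libraries (7164088 to 8454145). Heat shock genes summed to 9124 CPM in RT replicate 3, against 1419 and 1804 CPM in the other RT libraries and 1057 to 1356 CPM in the Dicer2 25C libraries. RT replicate 2 also stood apart in single genes: *Hsp26*, a small heat shock protein gene, was at 7.14, 154 and 1058 CPM in RT replicates 1, 2 and 3 and at 5.76 to 12.5 CPM in Dicer2 25C libraries.

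Ribosomal protein genes took a larger share of the reads in the RT control. They held 8.35, 7.72 and 8.06% of the counted reads in RT replicates 1, 2 and 3, and 5.07, 5.80 and 6.80% in Dicer2 25C replicates 1, 2 and 3. All RT libraries lay above all Dicer2 25C libraries, and the Dicer2 25C libraries were more spread out. The mean share was 8.04 ± 0.318% in RT and 5.89 ± 0.870% in Dicer2 25C (SD, n = 3 each), a difference of 2.15 percentage points. Both subunits took part: large subunit genes held 4.82 ± 0.180% of reads in RT and 3.53 ± 0.521% in Dicer2 25C, and small subunit genes held 3.22 ± 0.139% in RT and 2.36 ± 0.348% in Dicer2 25C (SD, n = 3 each). No member was among the 10 most abundant genes of any library, yet 30, 26 and 27 members were among the 100 most abundant in the RT libraries, against 6, 12 and 18 in the Dicer2 25C libraries. With the 10 most abundant genes of each library left out of the total, the shares averaged 9.09% in RT and 6.68% in Dicer2 25C.

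**Figure D1:**
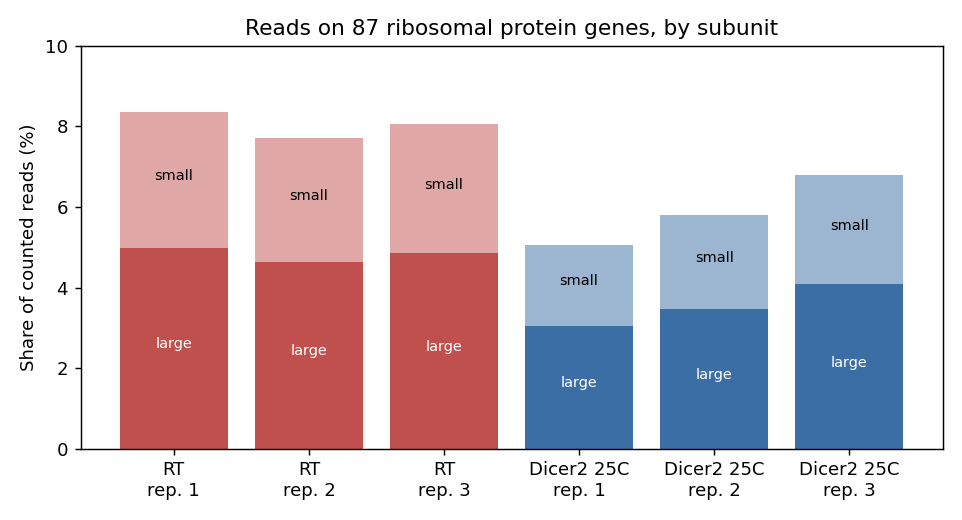
Share of counted reads (%, vertical axis, starting at 0) on the 87 ribosomal protein genes in each library, with large subunit genes as the darker lower part and small subunit genes as the lighter upper part of each bar. The RT libraries reach 7.72 to 8.35% and the Dicer2 25C libraries 5.07 to 6.80%, with much the same proportion between subunits in all.

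Most members were expressed at similar, high levels. Of the 87 genes, 78 averaged at least 22.02 CPM over the 6 libraries and 9 averaged at most 0.423 CPM, with none in between. Levels of different genes are compared per kilobase of exon, since longer transcripts give more reads. For the 78 abundant members the median was 972 CPM per kilobase, with 1143 in RT and 759 in Dicer2 25C. The highest level per kilobase was that of *RpL41*, which encodes a very short peptide of the large subunit, with a mean of 3323 CPM per kilobase. It was followed by *RpLP1* at 1750, a protein of the stalk that recruits elongation factors, by *RpS27A* at 1684, which is made as a fusion with ubiquitin, by *RpL39* at 1588, a small protein of the exit tunnel, and by *RpS18* at 1574, a protein of the small subunit head. Of the 77 neighbouring pairs of abundant members in this order, 74 had overlapping ranges within at least 1 of the groups. The exceptions were *RpL41* over *RpLP1*, *RpS21* over *RpL24-like* and *RpL38* over *RpS15Ab*. These ranges include shifts between libraries that the members share, so an overlap does not mean that a pair changed order. Compared within libraries, 9 pairs stood in the same order in all 6 libraries. *RpL41* and *RpL39* have only 320 and 288 bases of exon, so a small difference in the length used would move their level per kilobase.

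The difference between the controls was then examined gene by gene. The default expression filter of edgeR kept 79 members (46 large, 33 small) and left out 8, all of them near 0. In the quasi-likelihood test of edgeR, 49 of the 79 tested members (62.0%) were higher in RT at an adjusted p under 0.05, where 538 of all 10187 tested genes (5.28%) were. No member was lower, where 492 genes (4.83%) were. The called members were 29 large and 20 small subunit genes, with adjusted p of 0.0216 to 0.048. At an unadjusted p under 0.05, 76 members were higher, where 15.8% of all tested genes were. The 3 RT libraries were all above the 3 Dicer2 25C libraries for 77 members (97.5%), where this held for 19.5% of all tested genes, and all below for 1 member, *RpS5b*, where this held for 18% of all tested genes. DESeq2 called 73 members higher, where it called 10.4% of all tested genes.

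The change was moderate and even. The median log2 fold change of RT over Dicer2 25C was 0.56 over the 79 members (1.47-fold, quartiles 0.47 and 0.64), against -0.0038 over all tested genes, and it was 0.56 for each subunit. Apart from *RpS5b*, *RpL38* and *RpS15Ab*, the other 76 lay between 0.29 and 0.75. No member passed the study's own threshold, which also asks for an absolute log2 fold change over 1 and which 2.82% of all tested genes passed. The fold change had a Spearman rho of 0.22 with the level and of 0.095 with exon length over the 79 members, a description of genes that share libraries. The median was 0.50 for the 14 members on the X chromosome, and between 0.56 and 0.59 on each of the arms 2L, 2R, 3L and 3R.

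The number of calls changed when a library was left out, while the direction of the median did not. Such fits have fewer libraries for every gene, and the share called over all tested genes changed as well. Without Dicer2 25C replicate 3 there were 71 members higher in RT, where 8.24% of all tested genes were, and without RT replicate 1 there were 24 higher and 1 lower, where 6.51% of all tested genes were higher. No member was called by edgeR without any one of RT replicate 2, RT replicate 3, Dicer2 25C replicate 1 or Dicer2 25C replicate 2. In these fits 0.153 to 0.868% of all tested genes were higher. The median log2 fold change was 0.46 to 0.65 in these 6 fits.

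**Figure D2:**
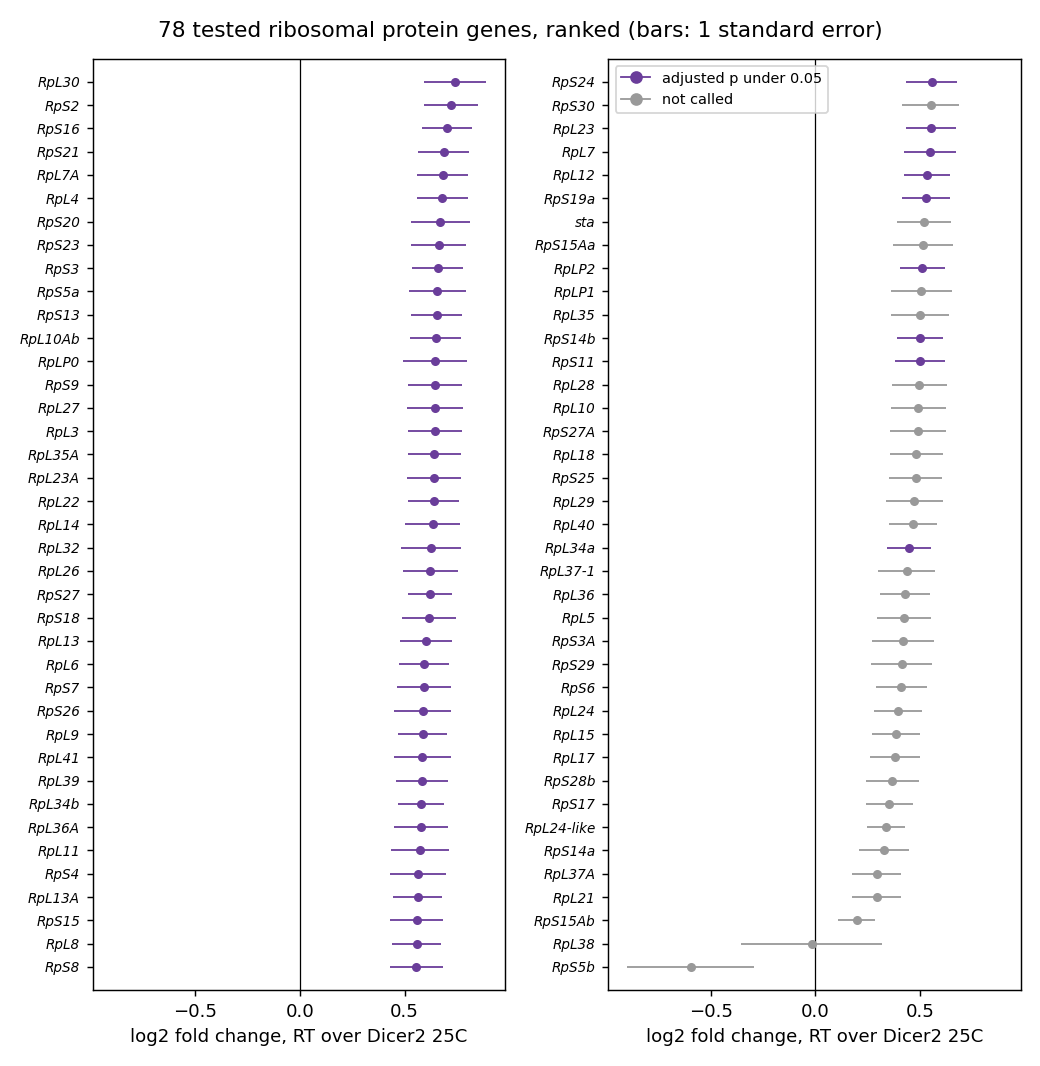
Log2 fold change of RT over Dicer2 25C (horizontal axis) for 78 of the tested ribosomal protein genes, ranked from the highest at the top left to the lowest at the bottom right, with bars of 1 standard error. Purple genes had an edgeR adjusted p under 0.05 and grey genes did not. All but *RpL38* and *RpS5b* lie to the right of 0.

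Among large subunit genes, *RpL30* was at 593, 507 and 557 CPM in RT libraries and at 267, 336 and 388 CPM in Dicer2 25C libraries. The groups were well apart, with a log2 fold change of 0.74 ± 0.15 (SE, edgeR adjusted p = 0.0321). *RpL4* and *RpL7A*, 2 of the most abundant members before length is taken into account, behaved alike. *RpL4*, part of which lines the exit tunnel, was at 2137, 1899 and 1984 CPM in RT and at 1100, 1270 and 1386 CPM in Dicer2 25C (0.68 ± 0.12, edgeR adjusted p = 0.0259). *RpL7A* was at 2233, 2037 and 2165 CPM in RT and at 1182, 1342 and 1483 CPM in Dicer2 25C (0.68 ± 0.12, edgeR adjusted p = 0.0244). In each of these genes the lowest RT library was above the highest Dicer2 25C library. *RpL10Ab*, the protein of the L1 stalk where spent tRNA leaves, was at 1376, 1158 and 1255 CPM in RT and at 714, 816 and 886 CPM in Dicer2 25C (0.65 ± 0.12, edgeR adjusted p = 0.0276).

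Among small subunit genes, *RpS16*, whose protein reaches towards the initiator tRNA, had the lowest adjusted p of all members. It was at 966, 906 and 906 CPM in RT libraries and at 491, 568 and 646 CPM in Dicer2 25C libraries. The RT libraries were nearly equal and the Dicer2 25C libraries were all lower (0.70 ± 0.12, edgeR adjusted p = 0.0216). *RpS2*, which lies at the channel where mRNA enters, was at 1615, 1466 and 1539 CPM in RT and at 803, 933 and 1066 CPM in Dicer2 25C (0.72 ± 0.13, edgeR adjusted p = 0.0246). *RpS3*, at the same channel, was at 1402, 1201 and 1262 CPM in RT and at 722, 832 and 896 CPM in Dicer2 25C (0.66 ± 0.12, edgeR adjusted p = 0.026). Both were lowest in Dicer2 25C replicate 1. *RpS21*, *RpS27* and *RpS13* were also among the 10 members with the lowest adjusted p, with log2 fold changes of 0.69, 0.62 and 0.65 and edgeR adjusted p of 0.0244, 0.023 and 0.0271.

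The stalk proteins carry the contact with elongation factors. *RpLP0*, the base of the stalk, was at 1508, 1144 and 1254 CPM in RT libraries and at 718, 825 and 951 CPM in Dicer2 25C libraries (0.65 ± 0.15, edgeR adjusted p = 0.0456). *RpLP2* was at 1130, 1055 and 1070 CPM in RT and at 679, 768 and 836 CPM in Dicer2 25C (0.51 ± 0.11, edgeR adjusted p = 0.0354). *RpLP1*, its partner, was at 1721, 1440 and 1570 CPM in RT and at 927, 1131 and 1273 CPM in Dicer2 25C, where the log2 fold change was as large but the spread wider (0.51 ± 0.15, edgeR adjusted p = 0.0724). The 3 genes therefore had the same direction in all libraries, and *RpLP1* alone missed the threshold.

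Several well known members missed the threshold narrowly. *RpS6*, the protein that S6 kinase phosphorylates downstream of TOR, was at 1448, 1335 and 1423 CPM in RT and at 923, 1051 and 1191 CPM in Dicer2 25C (0.41 ± 0.12, edgeR adjusted p = 0.076). *sta*, the fly gene for the small subunit protein SA, was at 1855, 1878 and 1976 CPM in RT and at 1146, 1324 and 1518 CPM in Dicer2 25C (0.52 ± 0.13, edgeR adjusted p = 0.0517). For both genes the groups did not overlap. The ubiquitin fusion genes gave log2 fold changes of 0.47 ± 0.12 for *RpL40* (edgeR adjusted p = 0.0507) and 0.49 ± 0.13 for *RpS27A* (edgeR adjusted p = 0.0616), and their libraries did not overlap either. *RpL21* and *RpL37A* had the lowest positive values among the large subunit genes, with 0.29 ± 0.12 each (edgeR adjusted p of 0.144 for both).

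The members moved together from library to library within the groups as well. A shift was taken as the median over the 79 tested members of log2 CPM minus the gene's mean over the 6 libraries. It was 0.38, 0.19 and 0.29 in RT replicates 1, 2 and 3, and -0.48, -0.26 and -0.10 in Dicer2 25C replicates 1, 2 and 3. The same median over all tested genes was close to 0 in each library, which is what the TMM scaling aims at. RT replicate 1 was the highest of the 6 libraries for 68 members, and Dicer2 25C replicate 1 was the lowest for 76. Within the Dicer2 25C group, replicate 3 was the highest library for 75 members and replicate 1 the lowest for 76. Within the RT group, replicate 1 was the highest for 68 and replicate 2 the lowest for 75. Such counts were not made over all tested genes, so they do not set the members apart from other genes. The median range within the group, on the log2 scale, was 0.18 for members in RT and 0.37 in Dicer2 25C, and for all tested genes it was 0.20 in RT and 0.24 in Dicer2 25C.

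Dicer2 25C replicate 1, the library with the lowest shift, was also the one with the fewest counted reads (18651266) and the most alignments to several places, and their part in the shift was not tested. Without this library the median log2 fold change was 0.46, with 77 of 79 members still above 0.

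**Figure D3:**
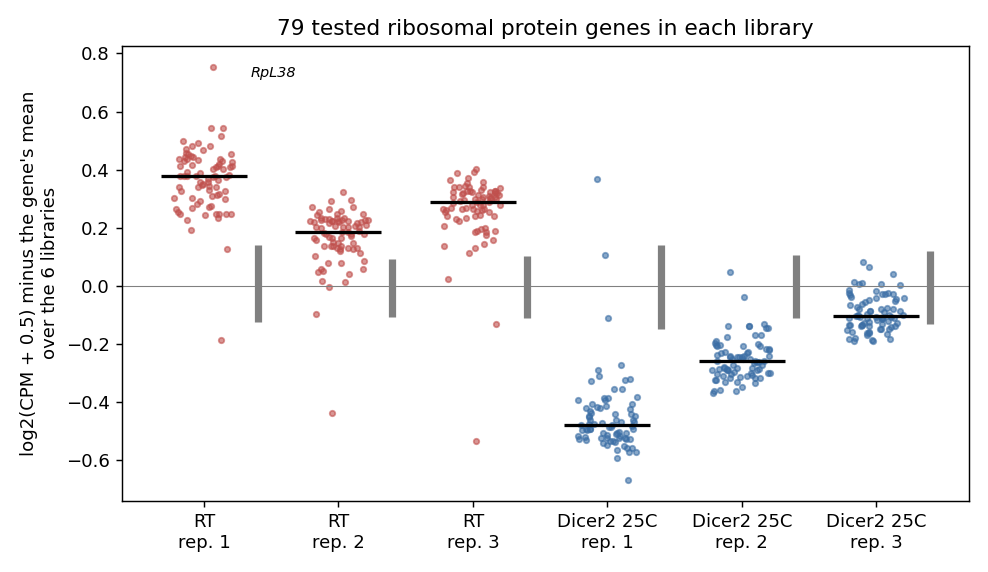
Each point is a tested ribosomal protein gene in a library, placed by its log2(CPM + 0.5) minus its mean over the 6 libraries (vertical axis), with a black line at the median over the 79 genes and a grey bar beside it for the interquartile range of all tested genes. The medians lie at 0.38, 0.19 and 0.29 in RT and at -0.48, -0.26 and -0.10 in Dicer2 25C, and *RpL38* is the stray point at the top of RT replicate 1.

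*RpL38*, a large subunit protein known in the mouse for its role in the translation of *Hox* mRNA, did not follow the other members. It was at 285.9, 124.9 and 116.6 CPM in RT libraries and at 182.3, 174.8 and 176.9 CPM in Dicer2 25C libraries. RT replicate 1 was the highest of the 6 libraries and the other RT libraries were the lowest, so the groups overlapped (log2 fold change -0.02 ± 0.34, edgeR adjusted p = 0.978). RT replicate 1 stood at 2.37 times the mean of the other RT libraries, where the median of this ratio over the tested members was 1.10. Its range within RT was 1.29 on the log2 scale, and it was the single member over 1 in either group. Without RT replicate 1, *RpL38* was called lower in RT (log2 fold change -0.56, edgeR adjusted p = 0.0122), the single member so called in any of the 6 fits that left out a library, while without RT replicate 2 or 3 its log2 fold change was 0.18 or 0.21. *RpL38* lies at 4515388 to 4516458 on chromosome arm 2R (minus strand, assembly BDGP6).

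Pairs of paralogs differed widely in how unequally they were used. *RpS14a* and *RpS14b*, which lie next to each other on the X chromosome and encode the same small subunit protein, were both abundant: *RpS14b* held 31.9, 34.1 and 31.9% of the reads of the pair in RT libraries and 29.5, 29.9 and 30.5% in Dicer2 25C libraries. The share was higher in every RT library, with a mean of 32.7 ± 1.29% in RT and 29.99 ± 0.492% in Dicer2 25C (SD, n = 3 each, exact permutation test, two-sided, p = 0.1). *RpS14b* itself was called (log2 fold change 0.50 ± 0.11, edgeR adjusted p = 0.0386) and *RpS14a* was not (0.33 ± 0.12, edgeR adjusted p = 0.122). Reads from near-identical stretches of the 2 copies can be dropped or assigned to the other copy, so this share is uncertain.

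*RpL34a*, the lesser copy of a large subunit gene, held 14.2, 16.1 and 16.3% of the reads of the pair with *RpL34b* in RT and 16.7, 16.5 and 16.9% in Dicer2 25C (exact permutation test, two-sided, p = 0.1). Both copies were called, with log2 fold changes of 0.45 ± 0.11 for *RpL34a* and 0.58 ± 0.11 for *RpL34b* (edgeR adjusted p of 0.0456 and 0.0285). *RpL24-like*, whose relative in yeast acts in assembly of the large subunit, held 16.1 ± 0.213% of the summed reads of the pair with *RpL24* in RT and 16.7 ± 0.725% in Dicer2 25C (SD, n = 3 each, exact permutation test, two-sided, p = 0.3). *RpS15Ab* was far lower than *RpS15Aa*: it was at 26.1, 22.2 and 22.3 CPM in RT and at 20.3, 19.8 and 21.5 CPM in Dicer2 25C, which was 3.07 ± 0.190% of the pair in RT and 3.78 ± 0.339% in Dicer2 25C (SD, n = 3 each, exact permutation test, two-sided, p = 0.1). Its log2 fold change was 0.20 ± 0.09 (edgeR adjusted p = 0.183). Of the 10 pairs tested, none had a Benjamini-Hochberg adjusted p under 0.25, and 3 libraries against 3 cannot give a raw p under 0.1.

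The remaining copies were close to absent from heads. *RpS5b*, the copy of *RpS5a* known from the ovary, had 10, 15 and 11 counts in RT libraries and 13, 10 and 11 counts in Dicer2 25C libraries. As CPM this was 0.305, 0.356 and 0.335 in RT and 0.681, 0.392 and 0.469 in Dicer2 25C, where *RpS5a* averaged 1188 CPM in RT and 753 CPM in Dicer2 25C. The counts overlapped between the groups and the CPM did not. *RpS5b* had the lowest log2 fold change of the tested members, -0.60 ± 0.30, and was not called (edgeR adjusted p = 0.238). Of the others, *RpL37-2* had 31 counts over the 6 libraries, *RpS10a* 23, *RpS19b* 12, *RpL22-like* 8, *RpS28-like* 5 and *RpS28a* 1. *RpL22-like*, *RpS19b* and *RpS10a* are known for expression in the germline. *RpL10Aa* and *RpL7-like* had 0 counts in each library, which allows up to 3 counts, or 0.0706 to 0.161 CPM depending on the library. For *RpL7-like* the 0 cannot be read as absence, because 1771 of its 1793 exon bases overlap another gene on the same strand and HTSeq by default assigns reads on such stretches to neither gene.

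Germline markers differed in level. Summed over 5 testis genes (*bam*, *dj*, *ocn*, *Mst87F* and *Mst84Da*), RT libraries held 0.0916 to 0.166 CPM and Dicer2 25C libraries 0.128 to 0.274 CPM, with *ocn* at 0 in all. *osk* and *nanos*, which are expressed in the ovary, were at 0 to 0.183 CPM in RT and at 0 to 0.262 CPM in Dicer2 25C. *bcd*, another ovary gene, was at 0.0305 to 0.152 CPM in RT and at 3.93, 0.118 and 0 CPM in Dicer2 25C, so that it stood out (75 counts) in Dicer2 25C replicate 1, the library where *RpS5b* was also highest. *grk*, also an ovary gene, was at 20.1 to 23.7 CPM in RT and at 19.9 to 22.6 CPM in Dicer2 25C. The part of germline RNA in the low copies was not tested.

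**Figure D4:**
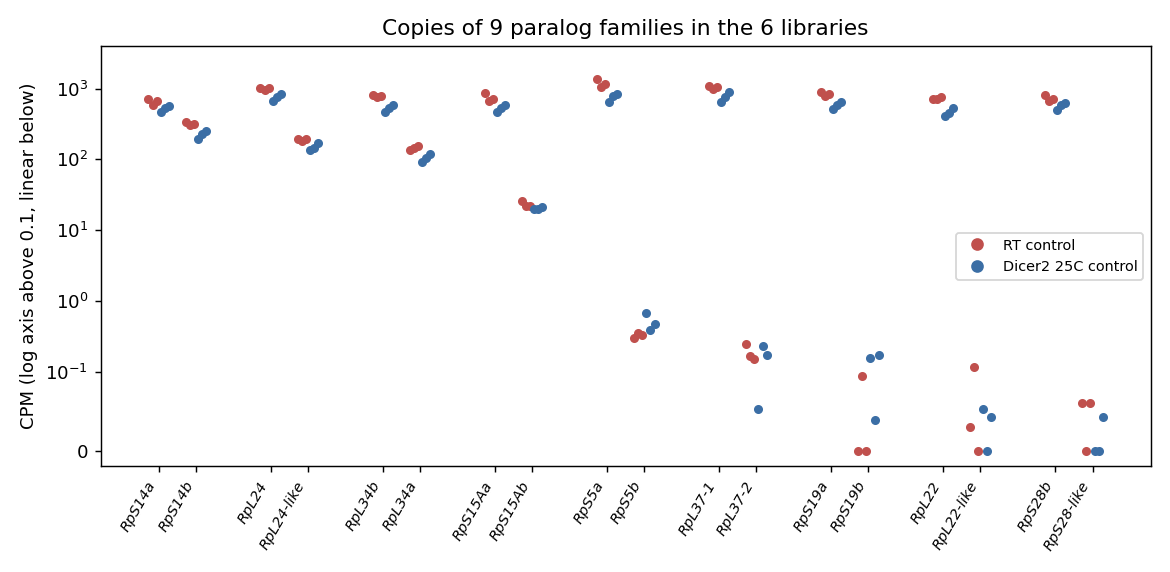
CPM (vertical axis, logarithmic above 0.1 and linear below) of both copies in 9 paralog families, with a point for each library, RT in red to the left of Dicer2 25C in blue. The lesser copies run from *RpS14b*, at 29.5 to 34.1% of the reads of its pair, through *RpS15Ab* near 20 CPM to copies under 1 CPM such as *RpS5b*.

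Other genes of translation were compared as lists, whose counts stand beside 5.28% of all tested genes higher and 4.83% lower in RT. A list with 1 call in 9 to 11 genes, or in 70, differs little in count from that background. In the edgeR test 4 of 7 elongation and termination genes were higher in RT, with a median log2 fold change of 0.30 over the list. The 9 genes planned for this list included *eEF1alpha1* and *eEF5*, which were not found under these symbols and are not covered. *eEF1beta*, which recharges the factor that delivers tRNA, was at 644, 539 and 575 CPM in RT libraries and at 250, 305 and 347 CPM in Dicer2 25C libraries (0.96 ± 0.14, edgeR adjusted p = 0.016). *eEF1gamma*, its partner, was at 1366, 1233 and 1290 CPM in RT and at 639, 789 and 809 CPM in Dicer2 25C (0.80 ± 0.12, edgeR adjusted p = 0.017). *eEF2*, which moves the ribosome along the mRNA, was at 4967, 4100 and 4350 CPM in RT and at 2752, 3106 and 2866 CPM in Dicer2 25C (0.62 ± 0.13, edgeR adjusted p = 0.0372). These 3 fold changes lay above the median of 0.56 of the ribosomal protein genes. The fourth was *eRF3*, a release factor (0.30 ± 0.07, edgeR adjusted p = 0.0424). *eEF1alpha2*, a gene for the tRNA delivery factor, was at 1005, 1137 and 1156 CPM in RT and at 1171, 1143 and 1125 CPM in Dicer2 25C (-0.06 ± 0.10, edgeR adjusted p = 0.706).

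Of 29 initiation genes, 6 were higher and 1 was lower in RT, with a median of 0.21. The higher ones were *eIF2alpha*, *eIF3b*, *eIF3c*, *eIF3d1*, *eIF3i* and *pAbp*, the poly(A)-binding protein, with log2 fold changes of 0.28 to 0.53. The lower one was *eIF4EHP*, a cap-binding protein that represses translation, at 107, 110 and 108 CPM in RT and at 161, 157 and 136 CPM in Dicer2 25C (-0.48 ± 0.08, edgeR adjusted p = 0.0212). Of 12 genes planned for ribosomal protein control, 11 were found, without *S6k*, and 1 of these was called. It was *Rack1*, a scaffold protein bound to the small subunit, at 1913, 1604 and 1701 CPM in RT and at 1014, 1153 and 1258 CPM in Dicer2 25C (0.61 ± 0.13, edgeR adjusted p = 0.0351). *Rack1* was also the only called gene among 9 ribosome-associated and nascent-chain genes. Of 11 assembly genes, *Non1*, a nucleolar GTPase, was called, at 1107, 781 and 850 CPM in RT and at 453, 515 and 482 CPM in Dicer2 25C (0.92 ± 0.15, edgeR adjusted p = 0.0197). Ribosomal protein genes of the mitochondrion, which form a separate ribosome, had a median of -0.05 over 70 tested genes, of which 1 was higher and 2 were lower in RT.

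**Figure D5:**
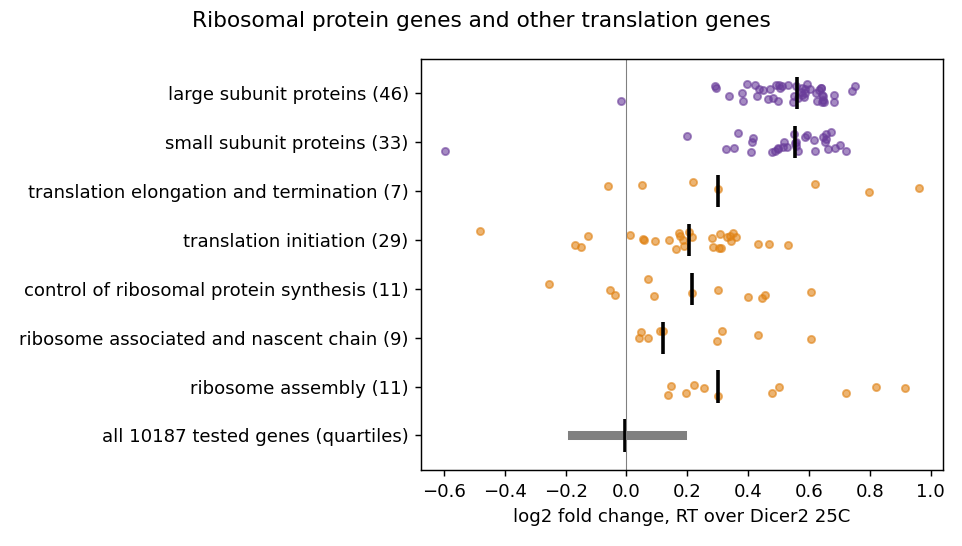
Log2 fold change of RT over Dicer2 25C (horizontal axis) for each tested gene of the ribosomal protein subunits (purple) and of the other translation lists (orange), with the number of tested genes in brackets and a black line at each median, and the interquartile range of all tested genes in grey. The ribosomal protein medians lie at 0.56 and the other lists at 0.12 to 0.30.

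Markers of other head tissues were read beside these results. Yolk protein genes and *Lsp2*, which mark fat body, summed to 31573, 45391 and 44480 CPM in RT and to 14648, 23991 and 23429 CPM in Dicer2 25C. *Yp3* of these was called higher in RT (log2 fold change 1.32, edgeR adjusted p = 0.0323). Nearly all of each sum was yolk protein RNA. *Lsp2* was at 50.6, 30.2 and 53.7 CPM in RT and at 44.0, 51.2 and 24.1 CPM in Dicer2 25C. It was not called (log2 fold change 0.17, edgeR adjusted p = 0.751), and it did not follow the sums from library to library. RT replicate 1, where the members were highest, had the lowest of the 3 RT sums, and Dicer2 25C replicate 1, where they were lowest, had the lowest sum of all. Muscle genes summed to 3309, 4363 and 4293 CPM in RT and to 7026, 6925 and 3623 CPM in Dicer2 25C, with none of 3 called. None of 4 neuronal, 4 photoreceptor or 3 glial markers was called. The log2 fold change was below 0 for all 4 neuronal and all 4 photoreceptor markers and above 0 for the 3 glial markers. Below 0 were also 5144 of all 10187 tested genes. Photoreceptor markers summed to 54118, 54072 and 55490 CPM in RT and to 62933, 63305 and 77672 CPM in Dicer2 25C. Antimicrobial genes summed to 119, 9.27 and 10.2 CPM in RT replicates 1, 2 and 3. In Dicer2 25C replicates 1, 2 and 3 they summed to 38.6, 381 and 262 CPM. Of these 6 genes, 2 were called lower in RT, where 4.83% of all tested genes were. The part of fat body, muscle, photoreceptor, neuronal, heat shock or antimicrobial RNA in the shift of the ribosomal protein genes was not tested.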

How the data were processed

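RNA from fly heads was measured as polyadenylated, strand-marked libraries of 2 control groups, 3 libraries each. Per the labels, with versions from the submitters' processing notes, the authors trimmed reads with Trimmomatic 0.36, aligned them with TopHat2 2.1.0 (the study's methods name a later version) and deposited raw HTSeq 0.6.1 counts of reads per gene, without normalization or pooling. The strand setting is not given in the sources used here. HTSeq by default leaves out reads with several alignments or on overlapping genes, so near-identical copies can lose reads. Exons of 10 members overlap another gene on the same strand and of 22 on the other strand.

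Symbols, coordinates and exon lengths came from the annotation of Ensembl release 115 (BDGP6.54), which matched 17253 of 17559 gene identifiers. The assembly is that of the authors' annotation, an earlier release. CPM used TMM-adjusted totals. The groups were compared with the quasi-likelihood test of edgeR 4.0.16 (R 4.3.3) after filterByExpr, with Benjamini-Hochberg adjustment over 10187 genes, as RT over Dicer2 25C. Standard errors were derived as the log2 fold change divided by the root of the F statistic. Shares of paralog pairs were compared by exact permutation over libraries. Log2 CPM for shifts had 0.5 added. The test was tested on simulated data. Python 3.11.15, pandas 2.3.3 and SciPy 1.17.1 were used.

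Depth was 18651266 to 42487803 counted reads, at which 3 counts, the limit used for a gene at 0, are 0.0706 to 0.161 CPM. Such limits cover counting error only. Replicates of a group differed beyond sampling noise and all 6 were counted. The labels call them replicates but do not say how pools were kept apart, so p-values measure the spread between these libraries. Members and lists were chosen with earlier results of these data known. Members named in the text are the paralog families, the stalk, ubiquitin-fusion, *sta* and *RpS6* genes, those with the lowest adjusted p or extreme fold change or level, and other translation genes counted as lists. Alternatives were RLE, upper quartile, total-only and member-free TMM scaling, DESeq2 1.42.0, the likelihood ratio test, other filters and thresholds, the replicate number as a block, and each library left out. A gene that falls under this rule is not reported here by name. No sequence is printed, because none was used here.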

Additional observations from a re-analysis of the deposited data

How the results depend on the processing

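The direction of the ribosomal protein genes held in each alternative run, with a median log2 fold change of 0.46 to 0.65, while the number called did not. It was 30 with library totals only, where 3.81% of all tested genes were higher, and 37 with upper quartile scaling, where 4.30% were. It was 73 with DESeq2, where 10.4% of all tested genes were higher. At an adjusted p under 0.01 it was 0. With a library left out it was 0 to 71, where 0.153 to 8.24% of all tested genes were higher. Library totals moved the median of all genes to -0.10, and relative to it the members' median was 0.56. All genes called numbered 1030, and 1889 with DESeq2, 2196 at an adjusted p under 0.1, 80 at 0.01, and 44 to 1944 with a library left out. With the fold threshold, 287 genes were called, 437 with DESeq2, 495 with the likelihood ratio test, and 33 to 438 with a library left out. Calls higher in RT made up 52.2% of all calls, 38.0% with upper quartile scaling and 27.1% with library totals. The log2 fold change of *RpL38* was 0.011 without a filter, -0.56 without RT replicate 1, where it was called, and 0.18 and 0.21 without RT replicate 2 and 3. The causes were not tested.

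With the replicate number as a block, 172 genes, 91 with the fold threshold, and 0 ribosomal protein genes were called (lowest edgeR adjusted p 0.0592, median log2 fold change 0.56). Deviations of same-numbered libraries correlated at -0.082, -0.0046 and 0.0050, so the libraries share only a number. Depth limits the copies with under 100 counts in all, for which no difference between the controls could be shown.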
